A study of Homo sapiens with 14 samples.

Results

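GATA1 peaks were examined in the zinc finger gene clusters of chromosome 19, that is, in the deposited peak lists wherever a peak's summit lay at chr19:19500000-24200000 (the 19p12 window) or chr19:52000000-58600000 (the 19q13 window) of GRCh38/hg38. The rule uses position alone and found 1936 of 370209 peaks, 892 of 249139 in the list labelled shHDAC5 and 1044 of 121070 in the list labelled shControl. GATA1 had been immunoprecipitated from PANC-1, a human pancreatic cancer line, in 8 samples at day 3. They comprise 2 immunoprecipitations and 2 inputs of cells labelled as an HDAC5 knockdown with a short hairpin (shHDAC5), and 2 immunoprecipitations and 2 inputs of cells labelled WT with a control hairpin (shControl). RNA was sequenced from cells labelled BxPC-3, another pancreatic cancer line, in 3 libraries labelled shHDAC5 and 3 labelled shControl, also at day 3. HDAC5 is a class IIa histone deacetylase. The labels do not say how the hairpins were delivered or how many clones were used.

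Most zinc finger genes of these clusters encode KRAB zinc finger proteins, DNA-binding repressors that arose by repeated gene duplication and many of which recognise transposable elements. Their KRAB domain recruits the corepressor TRIM28, which brings in the histone H3 lysine 9 methyltransferase SETDB1 and HP1 proteins, and the clusters themselves are known to carry this silent chromatin over the genes' coding ends. GATA1 is a zinc finger factor of another family, best known from red blood cell development, and binds short DNA sites with the core GATA.

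Each condition has a single peak list, so no difference between the lists has a replicate check and none was tested. The names written inside the lists go against the labels: peaks of the list labelled shHDAC5 are named GATA1-NC-IP, the wording used in the titles of the shControl samples, and peaks of the list labelled shControl are named GATA1-SAHA-IP. The lists are called by their labels below, and which cells each came from cannot be told apart here. The RNA labels also meet a contradiction. HDAC5 RNA was 161.8, 161.2 and 169.2 CPM (read counts scaled to library size) in the libraries labelled shHDAC5, against 95.4, 91.7 and 97.7 CPM in those labelled shControl, so the targeted gene went up where the label says it was knocked down (log2 fold change 0.79, SE 0.0358, adjusted p = 3.95e-40 by edgeR, with Benjamini-Hochberg adjustment over all genes tested). The RNA libraries held 15179758 to 17854340 counts. Of 19181 genes tested, 8597 were higher and 7644 lower in the libraries labelled shHDAC5. The markers of the labelled line were partly absent. BxPC-3 is an epithelial line known for KRT19, EPCAM and CDH1 expression and for a deletion of SMAD4. KRT19 had 1, 1 and 3 counts in the libraries labelled shHDAC5 and 1, 0 and 0 counts in those labelled shControl. EPCAM lay at 1.65 to 2.40 CPM in the libraries labelled shHDAC5 and 1.54 to 2.17 CPM in those labelled shControl, and CDH1 at 0.916 to 1.77 CPM in the libraries labelled shHDAC5 and 1.12 to 1.87 CPM in those labelled shControl. KRT8 and KRT18 were at 318 CPM or more in every library. COL1A1, a collagen gene typical of fibroblasts, lay at 77.2 to 82.0 CPM in the libraries labelled shHDAC5 and 89.8 to 97.1 CPM in those labelled shControl, and the leukocyte gene PTPRC had 3, 1 and 1 counts in the libraries labelled shHDAC5 and 1, 0 and 0 in those labelled shControl. SMAD4 lay at 45.9 to 47.4 CPM in the libraries labelled shHDAC5 and 47.6 to 52.5 CPM in those labelled shControl. The RNA is therefore described by its labels, and which line it came from cannot be told apart here. GATA1 itself had 2.85 ± 0.438 CPM in the libraries labelled shHDAC5 and 0.344 ± 0.0930 CPM in those labelled shControl (SD, n = 3 each).

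The sequences that the peaks at gene starts bear on are given first. They are RefSeq promoters of GRCh38.p14, each running from 250 bases before the gene's start to 50 bases after it, written 5′ to 3′ on the gene's strand. Of 13 zinc finger promoters overlapped by a peak of the list labelled shHDAC5 and 41 overlapped by a peak of the list labelled shControl, 6 were overlapped in both, those of ZNF549, ZNF71, ZSCAN5A, ZNF324B, ZNF582 and ZNF446. ZNF549 (chr19:57527106-57527405, plus strand) is shown because it holds the highest peak at any zinc finger start of the list labelled shHDAC5. ZNF582 (chr19:56393485-56393784, minus strand) is shown as the only 1 of the 6 with one of the longer GATA motifs spelled out further on, and ZNF737 (chr19:20565732-20566031, minus strand) because it is a 19p12 promoter with both a peak and such a motif. Capitals mark the motifs, on either strand.
ZNF549 promoter: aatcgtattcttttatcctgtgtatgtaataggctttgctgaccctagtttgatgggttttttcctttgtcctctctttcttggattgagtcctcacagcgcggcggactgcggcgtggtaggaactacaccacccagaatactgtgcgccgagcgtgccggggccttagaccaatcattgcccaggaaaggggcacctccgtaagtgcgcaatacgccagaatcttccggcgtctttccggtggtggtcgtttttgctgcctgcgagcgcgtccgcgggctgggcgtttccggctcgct
ZNF582 promoter: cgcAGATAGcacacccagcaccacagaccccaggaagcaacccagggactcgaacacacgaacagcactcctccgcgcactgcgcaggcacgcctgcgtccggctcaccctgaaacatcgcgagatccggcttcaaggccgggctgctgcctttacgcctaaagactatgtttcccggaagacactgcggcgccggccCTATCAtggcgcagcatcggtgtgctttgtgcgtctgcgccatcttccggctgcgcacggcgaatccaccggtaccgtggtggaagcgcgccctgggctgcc
ZNF737 promoter: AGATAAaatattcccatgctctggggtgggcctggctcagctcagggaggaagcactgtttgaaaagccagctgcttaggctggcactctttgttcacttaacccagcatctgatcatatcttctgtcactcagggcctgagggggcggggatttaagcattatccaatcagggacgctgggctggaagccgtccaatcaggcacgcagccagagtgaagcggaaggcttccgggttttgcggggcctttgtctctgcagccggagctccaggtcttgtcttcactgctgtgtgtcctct

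The 19p12 promoters also share a stretch that was noticed after the sequences were seen, TTATCCAATC, whose TATC is the GATA core read on the opposite strand and which runs into a CCAAT sequence. It is shown for the 6 of these promoters that had both the stretch and a peak. ZNF737 (chr19:20565857-20565876, minus strand) and ZNF429 (chr19:21505564-21505583, plus strand) had the peak in the list labelled shHDAC5. ZNF93 (chr19:19900853-19900872, plus strand), ZNF430 (chr19:21020562-21020581, plus strand), ZNF714 (chr19:21082107-21082126, plus strand) and ZNF208 (chr19:22011014-22011033, minus strand) had it in the list labelled shControl. Capitals mark TATC.
ZNF737 stretch: aagcatTATCcaatcaggga
ZNF429 stretch: aaacatTATCcaatcaggca
ZNF93 stretch: aagaatTATCcaatcaggga
ZNF430 stretch: aaatgtTATCcaatcagaga
ZNF714 stretch: aaaagtTATCcaatcagcga
ZNF208 stretch: aaacatTATCcaatcaggga

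Against the rest of chromosome 19, the 19p12 window was the poorer of the windows in peaks in both lists. In the list labelled shHDAC5, the 19p12 window held 244 peaks, or 51.9 per Mb over 4.7 Mb, and the 19q13 window 648 peaks, or 98.2 per Mb over 6.6 Mb. The rest of chromosome 19 held 85.1 per Mb in that list and the other chromosomes without Y 82.2 per Mb. In the list labelled shControl, the 19p12 window held 224 peaks, or 47.7 per Mb, and the 19q13 window 820 peaks, or 124 per Mb, beside 131 per Mb on the rest of chromosome 19 and 38.3 per Mb on the other chromosomes. The 19p12 window thus lay below the rest of chromosome 19 in both lists, at 0.610 times its density for shHDAC5 and 0.363 times for shControl, but against the other chromosomes it lay at 0.632 for shHDAC5 and 1.24 for shControl. The 1.24 rests on the window's first 500 kb, which held 69 of the 224 peaks of the list labelled shControl, or 138 per Mb. Its other pieces of up to 500 kb held 20 to 62 per Mb in that list. The density of both windows together was 0.927 times that of the rest of chromosome 19 in the list labelled shHDAC5 and 0.704 times in the list labelled shControl. Against the other chromosomes the lists fell on either side of 1, at 0.960 in the list labelled shHDAC5 and 2.41 in the list labelled shControl. In the list labelled shControl the average over the rest of chromosome 19, 131 per Mb, was also above the other chromosomes, though not in every stretch.

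**Figure D1:**
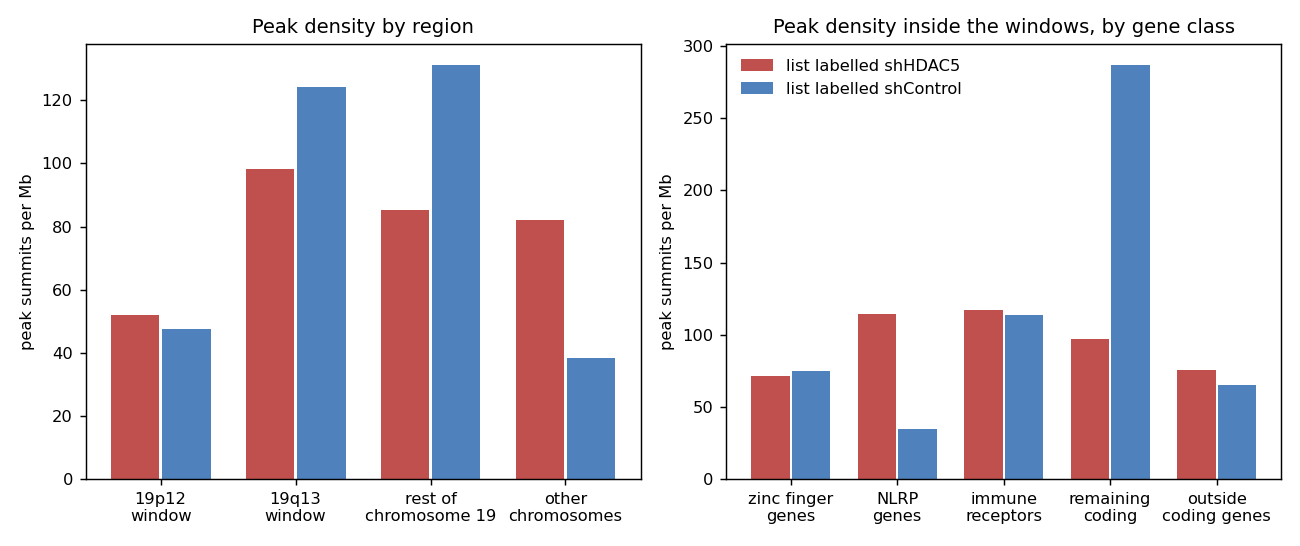
Peak summits per Mb by region (left) and inside the windows by class of gene (right), with the list labelled shHDAC5 in red and the list labelled shControl in blue. The 19p12 window stands at 51.9 and 47.7 per Mb, and the tallest bar is the remaining coding genes in the list labelled shControl, at 287 per Mb.

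Within the windows, peak counts of the list labelled shControl varied widely along the chromosome. Cut into pieces of 500 kb, it was densest at chr19:55000001-55500000, with 169 peaks, where zinc finger genes take up 1.57% of the bases and 28 other coding genes lie. The list labelled shHDAC5 had 53 peaks there. The same list labelled shControl was sparse at chr19:52500001-53000000, with 13 peaks, where zinc finger genes take up 77.4% of the bases, and the list labelled shHDAC5 had 34 there. The share of zinc finger bases did not order the pieces. At chr19:58000001-58500000, where zinc finger genes take up 63.5% of the bases, the list labelled shHDAC5 had 52 peaks and the list labelled shControl 124, and at chr19:54500001-55000000, with 0 zinc finger genes and 16 other coding genes, the list labelled shHDAC5 had 58 and the list labelled shControl 29. At the first window's outer edge, the 500 kb just inside held 38 peaks in the list labelled shHDAC5 and 69 in the list labelled shControl, and the 500 kb just outside held 51 in the list labelled shHDAC5 and 85 in the list labelled shControl. At the edge towards the centromere, the 500 kb inside held 20 peaks of the list labelled shHDAC5 and 14 of the list labelled shControl, and the 500 kb outside held 23 of the list labelled shHDAC5 and 1 of the list labelled shControl. At the start of the 19q13 window, the 500 kb inside held 27 peaks for shHDAC5 and 18 for shControl. The 500 kb outside that start held 30 for shHDAC5 and 17 for shControl.

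By gene class, zinc finger gene bodies carried fewer summits per Mb than the other coding genes beside them in both lists. The 147 zinc finger genes, taken by symbol, held 281 summits of the list labelled shHDAC5, or 71.4 per Mb, and 294 summits of the list labelled shControl, or 74.7 per Mb. The 126 other coding genes held 197 summits, or 104 per Mb, in the list labelled shHDAC5 and 393, or 207 per Mb, in the list labelled shControl. The ratio of zinc finger to other coding density was 0.686 (95% exact binomial interval 0.570 to 0.828) in the list labelled shHDAC5 and 0.360 (0.308 to 0.420) in the list labelled shControl. These intervals cover counting error only and treat peaks as independent. They also pool windows of unlike density. The 19p12 window held 1.52 of 3.94 Mb of zinc finger bodies but 0.247 of 1.90 Mb of other coding bodies. In the 19q13 window zinc finger genes held 91.3 per Mb against 107 for shHDAC5, and 100.7 against 212 for shControl. In the 19p12 window they held 39.6 per Mb against 85.2 for shHDAC5, and 33.0 against 174 for shControl. The smaller gap for shHDAC5 in the 19q13 window was not tested.

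The other families in the 19q13 window did not all behave alike. The 9 NLRP genes, which encode inflammasome and oocyte proteins, held 43 summits of the list labelled shHDAC5, or 115 per Mb, and 13 of the list labelled shControl, or 34.7 per Mb. The 24 immune receptor genes of the leukocyte receptor complex, which include the LILR and KIR families of leukocyte surface receptors, held 38 summits of the list labelled shHDAC5, or 117 per Mb, and 37 of the list labelled shControl, or 114 per Mb. The remaining 82 coding genes of the 19q13 window held 95 summits, or 100 per Mb, for shHDAC5 and 300, or 316 per Mb, for shControl. Over both windows the remaining 93 held 116 summits, or 97.0 per Mb, for shHDAC5 and 343, or 287 per Mb, for shControl. The primate-specific microRNA cluster at chr19:53666679-53762430, with 46 microRNA genes, held 11 summits of the list labelled shHDAC5 and 6 of the list labelled shControl. Outside coding genes the density in the 19q13 window was 99.2 per Mb for shHDAC5 and 89.3 per Mb for shControl. Over both windows it was 75.7 per Mb for shHDAC5 and 65.3 per Mb for shControl.

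The fold of a peak is the authors' own value, its enrichment over the peak caller's background. It is used here within its list, except that overlapping pairs are ranked by the lower of their folds. Folds in the windows were low and stepwise. The median was 2.42 in the list labelled shHDAC5, with a range of 1.57 to 4.50, and 2.95 in the list labelled shControl, with a range of 1.83 to 6.38, while the whole list had a median of 2.33 for shHDAC5 and 2.73 for shControl. The 5 commonest fold values accounted for 39.8% of window peaks in the list labelled shHDAC5 and 22.2% in the list labelled shControl, so many peaks share a fold. Folds were lower in the 19p12 window, with medians of 2.14 for shHDAC5 and 2.67 for shControl, than in the 19q13 window, with 2.47 for shHDAC5 and 3.03 for shControl. Peaks of at least 1 kb numbered 3 in the list labelled shHDAC5 and 53 in the list labelled shControl.

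**Figure D2:**
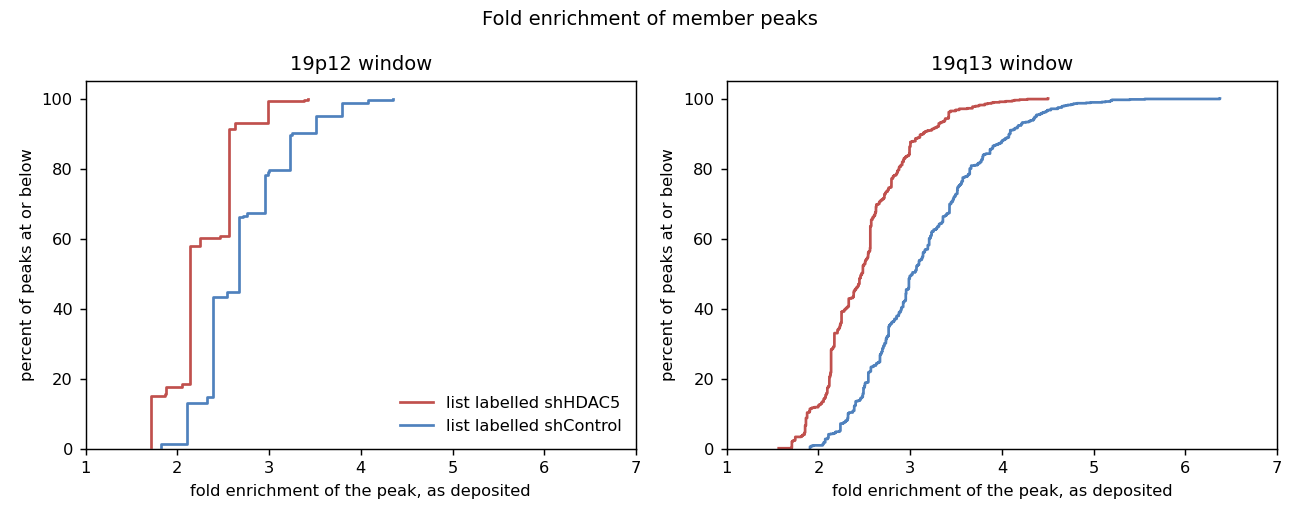
Share of peaks (percent) at or below each deposited fold enrichment in the 19p12 window (left) and the 19q13 window (right), for the list labelled shHDAC5 (red) and the list labelled shControl (blue). Steps in the 19p12 window are folds that many peaks share, and the largest folds are 4.50 in the list labelled shHDAC5 and 6.38 in the list labelled shControl, both in the 19q13 window.

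Few peaks passed a false discovery threshold, and nearly all that did lay in the 19q13 window. In the list labelled shHDAC5, 6 of 892 window peaks (0.673%, 95% exact binomial interval 0.247 to 1.46) had q of at most 0.05, against 0.419% of the whole list and 1.07% of the rest of chromosome 19. In the list labelled shControl, 121 of 1044 (11.6%, 9.71 to 13.7) did, against 5.1% of the whole list and 8.17% of the rest of chromosome 19. The 19p12 window held 0 of the 6 and 1 of the 121. All 244 peaks of the 19p12 window in the list labelled shHDAC5 therefore missed this threshold, and 0 of 244 allows a share of up to 1.5% by the exact interval. Many peaks had a −log10 q of 0, the lowest value possible. They were 75.6% of window peaks for shHDAC5 (78.6% of the whole list) and 39.8% for shControl (60.0%). In the 19p12 window they were 93.0% for shHDAC5 and 77.2% for shControl. Counts and densities of peaks here include them.

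The 6 such peaks of the list labelled shHDAC5 were these. The highest, with fold 4.50, lay in NLRP13 at chr19:55925795-55926215, and the next, with fold 4.27, within the annotated body of NCR1, which encodes the natural killer cell receptor NKp46, at chr19:54905401-54905888, 532 bases upstream of that gene's start in the promoter table. A peak of fold 4.19 at chr19:53280473-53280911 lay outside genes, 12951 bases from VN1R4, a vomeronasal receptor gene. A peak of fold 4.13 lay in COX6B2, a testis form of a cytochrome c oxidase subunit, at chr19:55350795-55351129. The zinc finger genes among them were ZNF549, with fold 4.11 at chr19:57527264-57527676, 100 bases downstream of its start, and ZNF544, with fold 3.71 at chr19:58246546-58246972, inside the gene. Only COX6B2 and ZNF549 were overlapped by a peak of the list labelled shControl, with fold 3.43 at COX6B2 and 3.29 at ZNF549, and both of those missed q of 0.05.

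Of the 121 such peaks of the list labelled shControl, 41 lay in zinc finger genes, 48 in other coding genes and 32 outside coding genes, and 54 lay between 54 and 56.5 Mb. The 5 of highest fold in the 19q13 window lay in SHISA7, which encodes a subunit associated with GABA-A receptors, with fold 6.38 at chr19:55432959-55434142 and fold 5.20 at chr19:55429692-55430425, in ZNF524 with fold 5.55 at chr19:55602109-55602990, in ZNF471 with fold 5.39 at chr19:56507476-56508229, and in the kinase gene SBK2 with fold 5.20 at chr19:55530956-55531318. Of these 5, the ZNF524 peak alone was overlapped by a peak of the list labelled shHDAC5, of fold 2.56. Other zinc finger peaks in this class sat at gene starts, with fold 5.09 at 276 bases downstream of the start of ZNF551 and fold 4.49 at 238 bases downstream of that of ZNF667. The single peak of the 19p12 window in this class, fold 4.36 at chr19:21443919-21444448, lay 16469 bases from ZNF493, the nearest coding gene.

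In the 19p12 window the highest peaks of the list labelled shHDAC5 lay between genes, with fold 3.42 at 7014 bases upstream of ZNF85 and fold 3.38 at 43250 bases from ZNF43. Another 15 peaks tied for the next place at fold 2.99. After the peak near ZNF493, the list labelled shControl had peaks of fold 4.07 in GMIP and 16323 bases upstream of ZNF492, and 8 peaks tied at fold 3.79. These 8 included a peak 221 bases downstream of the start of ZNF208 at chr19:22010575-22010949. ZNF208, ZNF91, ZNF43 and ZNF85 all belong to the cluster's primate-expanded KRAB zinc finger genes.

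The lists overlapped little in the windows. Of the 892 peaks of the list labelled shHDAC5, 112 (12.6%) shared at least 1 base with a peak of the other list, where 5.54% of the whole list and 15.2% of the rest of chromosome 19 did. Of the 1044 peaks of the list labelled shControl, 117 (11.2%) did, against 11.6% of the whole list and 10.1% of the rest of chromosome 19. Peaks of the list labelled shHDAC5 covered 2.89% of the windows' bases and those of the list labelled shControl 4.16%. An overlap of at least 1 base depends on the widths of both peaks, so these shares are not the overlap of peaks placed at random. In the 19p12 window 11 peaks of each list overlapped. In the 19q13 window 15.6% of the list labelled shHDAC5 and 12.9% of the list labelled shControl did.

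Taking for each overlapped peak of the list labelled shHDAC5 its partner gave 112 pairs. None of the 112 had q of at most 0.05 in both lists, the summits of a pair lay a median of 166.5 bases apart, and 23 pairs lay within 1 kb of a gene start. In the 19q13 window the 5 pairs with the highest lower fold were in ISOC2 (3.88 in the list labelled shHDAC5 and 4.07 in the list labelled shControl), COX6B2 (4.13 for shHDAC5 and 3.43 for shControl), ZNF549 (4.11 for shHDAC5 and 3.29 for shControl), PPP1R12C (3.53 for shHDAC5 and 3.25 for shControl) and TTYH1 (3.18 for shHDAC5 and 4.14 for shControl). In the 19p12 window the 5 pairs were in or near CILP2, ZNF14, ZNF98, ZNF254 and GATAD2A, with folds of 2.56 in each case in the list labelled shHDAC5 and 2.39 to 3.51 in the list labelled shControl. ZNF549 was the only zinc finger gene among the 5 strongest pairs of the 19q13 window.

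At zinc finger gene starts of both windows together, summits were most frequent just downstream in both lists. Of the 147 zinc finger genes, 123 have a start in the RefSeq promoter table, and the first 500 bases downstream of these held 15 summits of the list labelled shHDAC5 and 48 of the list labelled shControl. By window, the 29 starts of the 19p12 window had 1 of the 15 for shHDAC5 and 10 of the 48 for shControl, and other steps there also held 1 summit of the list labelled shHDAC5, so the pattern in that list was seen in the 19q13 window. The 500 bases upstream held 9 summits of the list labelled shHDAC5 and 17 of the list labelled shControl. Each of the 500-base steps from 1 to 3 kb on either side held 1 to 6 summits of the list labelled shHDAC5 and 1 to 8 of the list labelled shControl. At 103 starts of other coding genes the same downstream step held 6 summits of the list labelled shHDAC5 and 31 of the list labelled shControl. There the list labelled shHDAC5 had no excess at the start, since its steps within 3 kb held 2 to 10 summits.

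**Figure D3:**
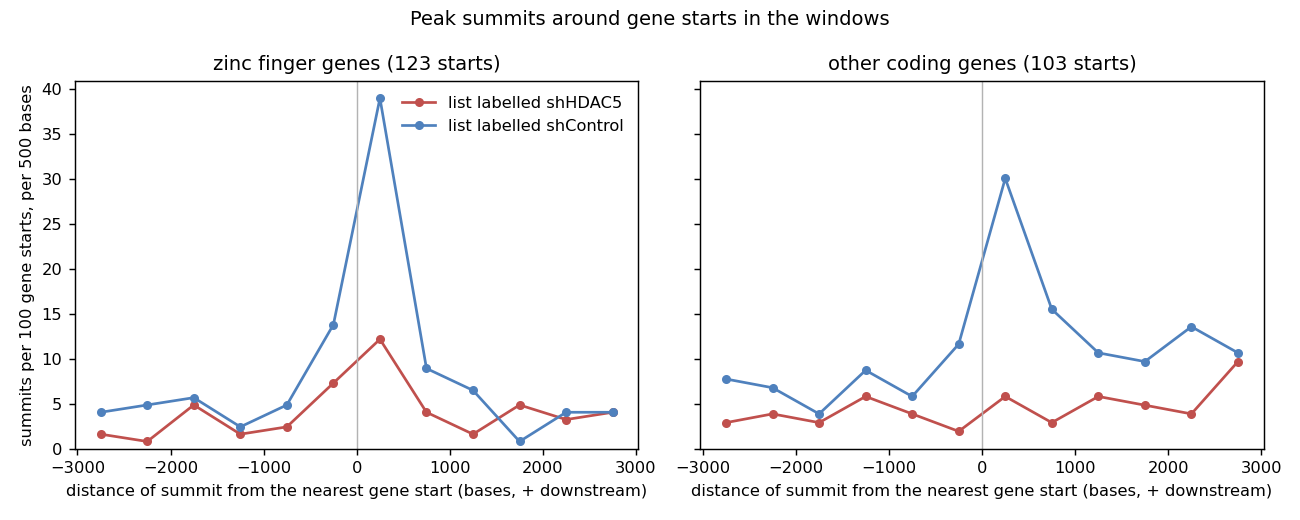
Summits per 100 gene starts in steps of 500 bases from the nearest start (x axis, bases, positive downstream), for zinc finger genes (left) and other coding genes (right), with the list labelled shHDAC5 in red and the list labelled shControl in blue. At zinc finger genes both lines peak in the first 500 bases downstream, at 12.2 summits per 100 starts for shHDAC5 and 39.0 for shControl.

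Along the gene the pattern was the same. In the 119 zinc finger genes of at least 5 kb whose strand is known, the first of 5 equal parts held 91.8 summits per Mb in the list labelled shHDAC5 and 139 per Mb in the list labelled shControl. The last part, where the exon with the zinc fingers lies in most such genes, held 56.3 per Mb in the list labelled shHDAC5 and 77.0 per Mb in the list labelled shControl. The 3 middle parts lay lower than both in the list labelled shControl, at 57.7 to 65.1 per Mb. In the 82 other coding genes of that length the first and last parts held 96.4 and 127 per Mb in the list labelled shHDAC5, and 214 and 220 per Mb in the list labelled shControl.

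Of the 123 zinc finger promoters, 13 (10.6%, 95% exact binomial interval 5.75 to 17.4) were overlapped by a peak of the list labelled shHDAC5, where 7.81% of all 15842 coding promoters were. The list labelled shControl overlapped 41 (33.3%, 25.1 to 42.4), where 23.8% of all coding promoters were. Other coding promoters of the windows were overlapped in 7 of 102 cases by the list labelled shHDAC5 and 26 of 102 by the list labelled shControl. Peaks within 1 kb of an end of a coding gene made up 11.2% of window peaks of the list labelled shHDAC5 (2.98% of the whole list, 10.03% on the rest of chromosome 19) and 22.2% of those of the list labelled shControl (11.4% of the whole list, 15.5% on the rest of chromosome 19). The share at gene ends was thus above that of the whole list in both lists. The rest of chromosome 19, also dense in genes, was close to the windows in the list labelled shHDAC5 and nearer to the whole list in the list labelled shControl.

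The 19p12 window had fewer of these overlapped promoters. In the 19p12 window, 2 of 29 zinc finger promoters were overlapped by the list labelled shHDAC5 and 5 of 29 by the list labelled shControl. In the 19q13 window 11 of 94 were overlapped by the list labelled shHDAC5 and 36 of 94 by the list labelled shControl. All 6 promoters overlapped in both lists lay in the 19q13 window. Base composition differed between overlapped and other promoters and between the windows, and its part was not tested. Overlapped zinc finger promoters had a median GC content of 64.7% in the list labelled shHDAC5 and 63.7% in the list labelled shControl, beside 60.0% in those not overlapped by shHDAC5 and 58.0% in those not overlapped by shControl. The median was 56.0% in the 19p12 window and 62.5% in the 19q13 window.

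The longer GATA motifs searched were AGATAA, the same ending in G (AGATAG), and both of these beginning with T (TGATAA, or TGATAG when ending in G). Searched on both strands, they were in 18.7% of zinc finger promoters and in 19.7% of all coding promoters. They were in 2 of the 13 promoters overlapped by the list labelled shHDAC5 and 5 of the 41 overlapped by the list labelled shControl, so most overlapped promoters had none in these 300 bases. The 4-letter core GATA was in 93.1% of the 29 zinc finger promoters of the 19p12 window, against 43.2% of all coding promoters. The shared stretch printed above holds this core, and its part in that share was not tested. Some promoters, such as that of ZNF737, hold the core elsewhere as well. The letters TTATCCAAT, on either strand, stood in 14 of those 29 promoters (48.3%), in 0 of the 94 zinc finger promoters of the 19q13 window and in 47 of all 15842 coding promoters (0.297%). Allowing 2 mismatches outside TATC in TTATCCAATC, 22 of the 29 promoters had it, and in 20 of the 22 the first base of TATC lay 80 to 90 bases before the start. Of these 22, 2 had a peak in the list labelled shHDAC5 and 4 in the list labelled shControl, so most promoters with the stretch had no called peak. Most coding promoters had none either, since 7.81% of all 15842 were overlapped by the list labelled shHDAC5 and 23.8% by the list labelled shControl.

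By number of summits inside the gene, ZSCAN5A led the 19q13 window, with 22 summits of the list labelled shHDAC5 and 6 of the list labelled shControl. Its annotated body is long, at 147 kb, which makes 1.91 summits of both lists per 10 kb. ZIM2, a zinc finger gene imprinted together with PEG3, held 10 summits of the list labelled shHDAC5 and 5 of the list labelled shControl. PEG3, a paternally expressed imprinted zinc finger gene whose body lies within that of ZIM2, held 6 of these for shHDAC5 and 5 for shControl, and 3 of its peaks in the list labelled shControl had q of at most 0.05. Other genes went with the list labelled shControl: ZSCAN18 held 6 summits for shHDAC5 and 11 for shControl, ZNF787 and ZSCAN1 each held 2 for shHDAC5 and 13 for shControl, and ZNF444 held 3 for shHDAC5 and 10 for shControl.

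In the 19p12 window, where counts per gene were small, ZNF91 had 7 summits of the list labelled shHDAC5 and 2 of the list labelled shControl. ZNF91 encodes a KRAB zinc finger protein that represses SVA retrotransposons. ZNF676 held 6 summits for shHDAC5 and 1 for shControl, and ZNF254 held 2 for shHDAC5 and 4 for shControl. ZNF730, ZNF208 and ZNF429 each held 3 for shHDAC5, beside 5, 4 and 3 for shControl. Over both windows 117 of 147 zinc finger genes held a summit of the list labelled shHDAC5, 119 held one of the list labelled shControl, 95 held both and 6 held none. TRIM28, the corepressor gene at the chromosome's end (chr19:58544064-58550715), held 1 summit of fold 2.17 in the list labelled shHDAC5 and 4 summits of fold up to 4.09 in the list labelled shControl, 2 of which had q of at most 0.05.

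The RNA of the windows' genes was read from cells labelled BxPC-3 and the peaks from PANC-1, so by their labels a gene's peaks and its RNA are from different cells. Less RNA per cell and fewer cells of a kind cannot be told apart in these bulk libraries. Of 273 coding genes of the windows, 178 passed the filter on low counts, and 90 of them were higher and 57 lower in the libraries labelled shHDAC5 (adjusted p under 0.05, edgeR). Over all genes tested 44.8% were higher and 39.9% lower, so most genes differed between these libraries. Of 147 zinc finger genes 98 passed the filter, 45 were higher, 32 lower and 21 did not pass the test, with a median log2 fold change of 0.18 beside 0.09 over all genes tested. The groups did not overlap in 78 of the 98, where 84.8% of all genes tested did not overlap. In the 19p12 window all 20 zinc finger genes tested were called, 12 higher and 8 lower, and in the 19q13 window 33 of 78 were higher and 24 lower. Zinc finger genes of a cluster are similar in sequence, so reads of near-identical copies can be split or lost in counting.

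ZNF606 was the extreme case. It had 188, 216 and 217 counts in the libraries labelled shHDAC5 and 0, 0 and 0 counts in those labelled shControl, which is at least 184-fold higher in the libraries labelled shHDAC5 against a floor of 3 counts over the group (adjusted p = 1.24e-42, edgeR). ZNF208, PEG3 and ZNF486 were likewise at 0 counts in all 3 libraries labelled shControl, and had 55, 63 and 52 counts, 28, 21 and 15 counts, and 20, 15 and 11 counts in the libraries labelled shHDAC5. In all, 13 of the 178 coding genes tested (7.30%) had no count in the libraries labelled shControl, against 3.68% of all genes tested. Of the 98 zinc finger genes tested, 4 (4.08%) had none there, which is close to the share over all genes. In the libraries labelled shHDAC5, 0 of the 178 had no count, against 0.0626% of all genes tested.

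Among called zinc finger genes with a mean log2 CPM of at least 1, which leaves out ZNF208, PEG3 and ZNF486, the largest rises after ZNF606 were in ZNF841 and ZNF737. ZNF841 had 79.6, 87.8 and 81.8 CPM in the libraries labelled shHDAC5, against 20.9, 19.8 and 20.1 CPM in those labelled shControl (log2 fold change 2.04, SE 0.0573, adjusted p = 7.23e-59, edgeR). ZNF737, whose promoter is printed above, had 6.80, 6.53 and 7.44 CPM in the libraries labelled shHDAC5, against 1.80, 2.10 and 1.87 CPM in those labelled shControl (log2 fold change 1.85, SE 0.185, adjusted p = 1.61e-16, edgeR). In both genes every library labelled shHDAC5 lay above every library labelled shControl. ZNF841 held 1 summit of the list labelled shHDAC5 and 0 of the list labelled shControl, and ZNF737 held 1 for shHDAC5 and 2 for shControl.

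At that level the largest falls were in ZNF836, ZNF524 and ZNF579. ZNF836 had 1.18, 1.09 and 1.06 CPM in the libraries labelled shHDAC5, against 3.60, 2.93 and 3.68 CPM in those labelled shControl (log2 fold change -1.62, SE 0.251, adjusted p = 6.34e-09, edgeR). ZNF524 had 4.14, 3.84 and 4.03 CPM in the libraries labelled shHDAC5, against 12.2, 10.8 and 11.2 CPM in those labelled shControl (log2 fold change -1.51, SE 0.136, adjusted p = 6.99e-19, edgeR). ZNF579 had 9.40, 8.70 and 9.28 CPM in the libraries labelled shHDAC5, against 23.2, 20.6 and 21.7 CPM in those labelled shControl (log2 fold change -1.26, SE 0.0957, adjusted p = 2.34e-23, edgeR). In all 3 genes every library labelled shHDAC5 lay below every library labelled shControl. ZNF524 held the second highest fold of the 19q13 window in the list labelled shControl, ZNF579 held a peak of fold 3.87 in that list, and ZNF836 held no summit in either list.

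Zinc finger genes whose promoter was overlapped by the list labelled shHDAC5 were mostly higher in the libraries labelled shHDAC5. Of these 13 genes 9 passed the filter on low counts, and 8 were higher and 1 lower, with a median log2 fold change of 0.86, beside 29 higher and 26 lower of 76 tested without such a peak, with a median of 0.13. Of the 13 promoters, only that of ZNF549, which has no RNA test, had a peak with q of at most 0.05. The promoter peaks of the 9 tested genes all missed this threshold. The 8 were ZNF737, ZNF160, ZNF808, ZSCAN5A, ZNF71, ZNF324B, ZNF429 and ZNF587, with log2 fold changes of 0.18 to 1.85, and the gene that was lower was ZNF446, at -0.83. For the list labelled shControl, 28 of 41 genes with an overlapped promoter were tested, 10 higher and 8 lower with a median of 0.15, beside 27 higher and 19 lower of 57 without, with a median of 0.18. The difference between genes with and without a peak was not tested, the number of genes is small, and the share of higher genes was 44.8% over all genes tested.

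ZNF160 and ZNF808 were the members of this group printed here at a higher RNA level. ZNF160 averaged 67.7 ± 2.74 CPM in the libraries labelled shHDAC5 and 27.2 ± 0.693 CPM in those labelled shControl (SD, n = 3 each). ZNF808, whose protein represses the MER11 family of retroviral elements and is required for pancreas formation in humans, had 25.7, 28.9 and 27.1 CPM in the libraries labelled shHDAC5, against 11.9, 13.9 and 13.7 CPM in those labelled shControl. Both genes had a promoter peak in the list labelled shHDAC5 and none in the list labelled shControl. ZNF160 did have a peak of the list labelled shControl outside its promoter, with fold 4.31 and q of at most 0.05. The summit of that peak lay 480 bases downstream of the ZNF160 start. The promoter peak of ZNF160 in the list labelled shHDAC5 had fold 2.09 and missed q of 0.05. ZNF549 and ZNF582, whose promoters had a peak in both lists, did not pass the filter on low counts and have no RNA test.

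**Figure D4:**
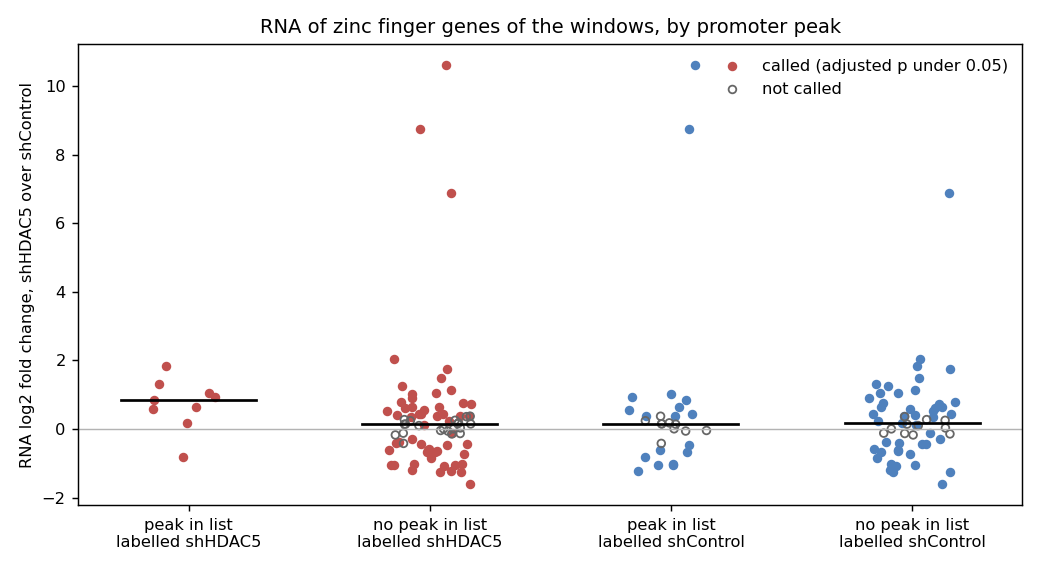
RNA log2 fold change of the libraries labelled shHDAC5 over those labelled shControl, for each tested zinc finger gene of the windows that has a promoter entry, grouped by whether its promoter was overlapped by a peak of the list labelled shHDAC5 (red) or of the list labelled shControl (blue). Filled points passed the test, open points did not, and black lines are medians (0.86 and 0.13 with and without a peak for shHDAC5, and 0.15 and 0.18 for shControl). No promoter peak of the list labelled shHDAC5 at a plotted gene had q of at most 0.05. The 3 plotted genes above 6 are ZNF606, ZNF208 and ZNF486, which had 0 counts in the libraries labelled shControl, so their plotted height depends on the fit's prior count.

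Genes of the repression machinery that KRAB zinc finger proteins act through were mostly lower in the libraries labelled shHDAC5. Of 15 listed genes, all tested, 11 were lower and 3 higher, with a median log2 fold change of -0.74 beside 0.09 over all genes tested, of which 39.9% were lower and 44.8% higher. TRIM28 had 118, 123 and 122 CPM in the libraries labelled shHDAC5, against 190.4, 202 and 206 CPM in those labelled shControl (log2 fold change -0.72, SE 0.0334, adjusted p = 1.99e-39, edgeR). SETDB1 had 32.3 ± 0.423 CPM in the libraries labelled shHDAC5 and 56.8 ± 2.10 CPM in those labelled shControl, and its partner ATF7IP 38.4 ± 3.16 CPM in the libraries labelled shHDAC5 and 68.3 ± 1.24 CPM in those labelled shControl (SD, n = 3 each). The HP1 genes CBX5, CBX3 and CBX1 fell by 2.02, 1.19 and 0.31 on the log2 scale, and CHD3, a remodeller subunit that binds TRIM28, fell by 2.82. TASOR, a subunit of the HUSH silencing complex, and the methyltransferase gene SUV39H1 fell by 1.35 and 1.87. The 3 that were higher were MPHOSPH8, MORC2 and HDAC1, at log2 fold changes of 0.47, 0.35 and 0.26, and PPHLN1 was at -0.01 (adjusted p = 0.770, edgeR).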

How the data were processed

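The members and gene lists were chosen with earlier results of these data known. Per the submitters' processing notes, the tools were MACS2 2.2.7.1, featureCounts 2.0.1, fastp 0.23.2, deepTools 3.5.0 and FastQC 0.11.9, and the build was hg38. The notes give them no role. The sources used here do not give the aligner, the annotation release, the strand setting or any pooling of immunoprecipitations. The RNA file holds raw read counts per gene, deposited by the authors without normalization. In the peak lists the authors deposited, for each peak, a fold enrichment (a ratio) and the −log10 of its p and of its q. The input samples were not analysed here.

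Summits on chromosomes 1 to 22, X and Y were placed against RefSeq coding genes and promoters of GRCh38.p14, and zinc finger genes were taken by symbol (ZNF, ZSCAN, ZIM, ZFP, ZBTB, ZIK, PEG3, MZF). Of 147 zinc finger genes 123 had a promoter entry. Overlap means at least 1 base. A motif search at summits was planned and not run for want of a genome sequence. Intervals are 95% exact (Clopper-Pearson) and cover counting error only. For RNA, edgeR 4.0.16 (R 4.3.3) kept genes by filterByExpr, applied TMM scaling and gave quasi-likelihood tests between the groups, adjusted over 19181 genes at 0.05. No label ties replicates to separate cultures, so their spread, and the p-values that rest on it, may be technical. Alternatives were other thresholds, overlaps and backgrounds, DESeq2 1.42.0, RLE scaling, no filter, the replicate number as a block and leaving out each library. The scripts were tested on simulated data.

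Named peaks and genes are the 5 peaks of highest fold per list and window (ties counted), the 5 strongest overlapping pairs per window, the 6 zinc finger genes with most summits per window, the 3 largest RNA rises and the 3 largest falls among called zinc finger genes whose groups do not overlap and whose mean log2 CPM reaches 1, TRIM28, PEG3 and the repression list. Others, among them the cell line markers, peaks with q of at most 0.05, genes with a promoter peak, genes without counts and the shared stretch, were named after their values were seen.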

Additional observations from a re-analysis of the deposited data

How the results depend on the processing

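Placing peaks by midpoint or counting identical intervals once left the window counts as they were. With −log10 p of at least 2 there were 586 peaks in the list labelled shHDAC5, and with q of at most 0.05, 6 of the list labelled shHDAC5 and 121 of the list labelled shControl. The density of the windows over the rest of chromosome 19 turned above 1 in the list labelled shHDAC5 with −log10 p of at least 2 (1.08) and in the 19q13 window alone (1.15), and in the list labelled shControl against the other chromosomes (2.41). The cause was not tested. Otherwise it was 0.584 with q of at most 0.05 and 0.610 in the 19p12 window for the list labelled shHDAC5. For the list labelled shControl it was 0.813 with −log10 p of at least 2, 0.999 with q of at most 0.05, 0.363 in the 19p12 window, 0.947 in the 19q13 window, and 0.650 with the stretch from the 19p12 window to 28 Mb left out of the rest, an alternative chosen after seeing the data. Overlap of at least 50% of both peaks gave 5.04% for the list labelled shHDAC5 and 4.31% for the list labelled shControl. A q of at most 0.01 left 0.112% and 3.74% of window peaks of the list labelled shHDAC5 and the list labelled shControl, and 0.1 gave 15.3% for shControl. The ratio of zinc finger to other coding density was 0.465 in the 19p12 window and 0.855 in the 19q13 window for shHDAC5, and 0.189 and 0.475 for shControl. Within 5 kb of a gene end lay 39.5% of window peaks for shHDAC5 and 56.3% for shControl. For RNA, the calls in window genes stayed within 1.5 times under every alternative run, with 87 to 91 higher and 54 to 57 lower when a library was left out. The replicate block gave 89 higher and 56 lower; same-numbered libraries did not deviate together (correlations -0.0126, 0.00258 and 0.00593), so the numbers do not pair the samples. The 17 zinc finger genes with named RNA values and the 15 repression genes kept their direction and call under all 10 alternatives, except PPHLN1, which turned to 0.0169 with RLE scaling without passing the test. The median log2 fold change over all genes tested, 0.09, was 0.74 with DESeq2 and 0.68 without a filter, both above the zinc finger medians of 0.19 and 0.14; over the 19181 genes of the filtered fit alone it was 0.10 with DESeq2 and 0.05 without a filter, so the shift lies in the genes the filter leaves out. A motif search at summits was not run. Peak lists carry no depth, so a gene or window without a peak may lie below what they can show.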
